A study of Mus musculus with 6 samples.

Results

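The 9 genes described here encode the PPAR nuclear receptors, their partner RXRα and the NCoR corepressor complex. They were taken from the 45777 genes of the expression table by their symbols, and all 9 were present and passed the filter on low counts (no more than 1 zero count among the 6 mice), as did 18636 genes in all. The receptors are *Ppara*, *Ppard* and *Pparg*, and the partner is *Rxra*. The complex is represented by the scaffold *Ncor1*, the deacetylase *Hdac3*, the exchange factors *Tbl1x* and *Tbl1xr1*, and *Gps2*.

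Liver RNA was sequenced from 3 WT mice, which were *Pak4* flox/flox, and from 3 LKO mice, which were Alb-Cre; *Pak4* flox/flox. All were C57BL/6 males 8 weeks old that were fasted for 24 h, with 1 library per mouse. Both genotypes carry the floxed allele, and only LKO mice carry Cre, which the albumin promoter drives in hepatocytes. Whether the other liver cells of LKO mice keep *Pak4* was not measured. PAK4 is a serine/threonine kinase that acts on NCoR1, and the comparison of the genotypes asks how its loss from hepatocytes changes the fasted liver. In RNA of whole liver, fewer cells of a type and less RNA per cell cannot be told apart.

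PPARs are receptors for fatty acids and their derivatives. Each binds DNA as a pair with a retinoid X receptor, typically at a pair of AGGTCA-like hexamers separated by a single base, an arrangement called DR1. PPARα is the main PPAR of hepatocytes and turns on genes of fatty acid oxidation and ketone body production in fasting, PPARγ is the adipocyte receptor that favours lipid storage, and PPARδ is broadly expressed. NCoR1 holds HDAC3, TBL1X, TBL1XR1 and GPS2 together on receptors that lack an activating ligand, and the complex removes acetyl groups from histones. TBL1X and TBL1XR1 take part in exchanging corepressors for coactivators, and GPS2 bridges the complex and restrains signalling through it.

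Promoter windows of RefSeq (GRCm38.p6, the assembly that mm10 represents) were searched on both strands for these letters. Each of the 32817 windows holds 300 bases around a start of transcription, and 12 of them belong to 8 of the 9 genes. The DR1 in the form AGGTCANAGGTCA was in 0.0396% of all windows and in no window of the 8 genes. The hexamer AGGTCA, which is part of it, was in 16.3% of all windows and in those of *Rxra* and *Pparg*. These 4 matches are shown because they are the only hexamers found in the 12 windows, with the hexamer in capitals, 10 bases on each side and the letters on the strand of the gene.
*Rxra* at chr2:27709195-27709220: gaaatgggtgTGACCTgagtaatggt
*Rxra* at chr2:27709234-27709259: gtggcaggaaAGGTCAgtcactctct
*Pparg* at chr6:115361106-115361131: ccgccgcctcAGGTCAgagtcgcccc
*Pparg* at chr6:115362330-115362355: ggacgcgaggAGGTCAagaaggggcc
The first *Rxra* match reads on the other strand, as TGACCT. The matches began at −87 and −48 from an *Rxra* start and at −28 and −9 from 2 *Pparg* starts. In GENCODE, both *Rxra* matches lie within the gene but in none of its exons, and both *Pparg* matches lie in exons annotated for *Pparg*. A match is a description of letters and was not measured as bound by a receptor.

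Library totals ranged from 45934632 to 55205564 counts in WT livers and 53936281 to 59576437 in LKO livers. The small RNAs 7SL and 7SK took up 24.1% to 28% of the TPM (a measure that divides reads by transcript length and sums alike in each mouse) in WT livers and 44.4% to 53.9% in LKO livers, and protein-coding genes took up 88.5% to 89.6% and 77.3% to 80.7% of the counts. Scaling by TMM, which sets the libraries level over most genes, gave factors of 1.28 to 1.43 for WT and 0.639 to 0.816 for LKO mice, and the median log2 fold change of LKO over WT over all genes was −0.04. With total counts in place of TMM this median was −0.90. After TMM 3661 genes were higher and 3815 lower in LKO mice (edgeR quasi-likelihood test, adjusted p under 0.05), against 1167 higher and 9575 lower with total counts. Each fold change below is relative to the other genes of the same libraries, and none is an amount of RNA per cell. Values in CPM are read counts scaled by TMM to a common library size and serve to compare mice, whereas TPM serve to compare genes.

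*Pak4* itself had 268, 210 and 271 read counts in WT livers and 85, 52 and 149 in LKO livers. It was at 3.59, 3.21 and 4.1 CPM in WT livers and at 1.93, 1.49 and 3.22 CPM in LKO livers, so that LKO mouse 3 lay within the WT range. Its log2 fold change was −0.71 ± 0.31 (SE; edgeR, adjusted p = 0.10) after TMM and −1.54 (adjusted p = 0.0056) with total counts. Without LKO mouse 3 it was −1.08 after TMM (adjusted p = 0.015). By TPM, 2.41, 2.31 and 2.59 in WT and 0.457, 0.265 and 0.845 in LKO livers, the genotypes did not overlap. *Samd4b* overlaps *Pak4* on the same strand over 39326 of the 39366 bp of *Pak4* and had a log2 fold change of −0.04 (edgeR, adjusted p = 0.92). Strand therefore cannot separate reads of the pair, and how reads were divided between them was not tested.

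Of the 9 genes, 5 fell in LKO livers relative to the other genes (*Ppara*, *Pparg*, *Ncor1*, *Hdac3* and *Tbl1x*), 1 rose after TMM (*Tbl1xr1*, whose sign turned with total counts and with TPM) and 3 did not pass the test (*Ppard*, *Rxra* and *Gps2*). Among all genes tested, 19.6% were called higher and 20.5% lower. The median log2 fold change of the 9 genes was −0.48 against −0.04 over all genes. With total counts, 8 of the 9 were called lower and 0 higher, against 51.4% and 6.26% of all genes. Measured from the median of all genes, TMM and total counts gave nearly the same values, for example −1.08 for *Ppara* under both, −1.51 for *Pparg* under both, −0.63 for *Ncor1* under both, and 0.56 after TMM and 0.54 with total counts for *Tbl1xr1*. Such likeness follows from the method, because a change of library scaling shifts every gene by nearly the same amount. Of the genes, 8 were below the median of all genes and 1 above it in every edgeR and DESeq2 fit. All these fits draw on the same 6 libraries and are not separate support. In limma the sides depended on the scale, since *Ppard* lay above the median and *Tbl1xr1* below it (0.27 and −0.15 from it) on log2(TPM + 1), while *Tbl1xr1* lay above on log2(TPM + 0.1) and both lay above on protein-coding TPM. *Ncor1* and *Rxra* were at −1.14 and −1.13 from the median on log2(TPM + 1), against −0.63 and −0.44 after TMM. On log2(TPM + 0.1) they were at −0.73 and −0.66 from it, so that these distances depended on the constant added to TPM. Without LKO mouse 3, the mouse with the highest *Pak4* count of its group, the counts again were 1 higher and 5 lower, whereas leaving out any other mouse gave 0 higher and 3 or 4 lower.

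**Figure D1:**
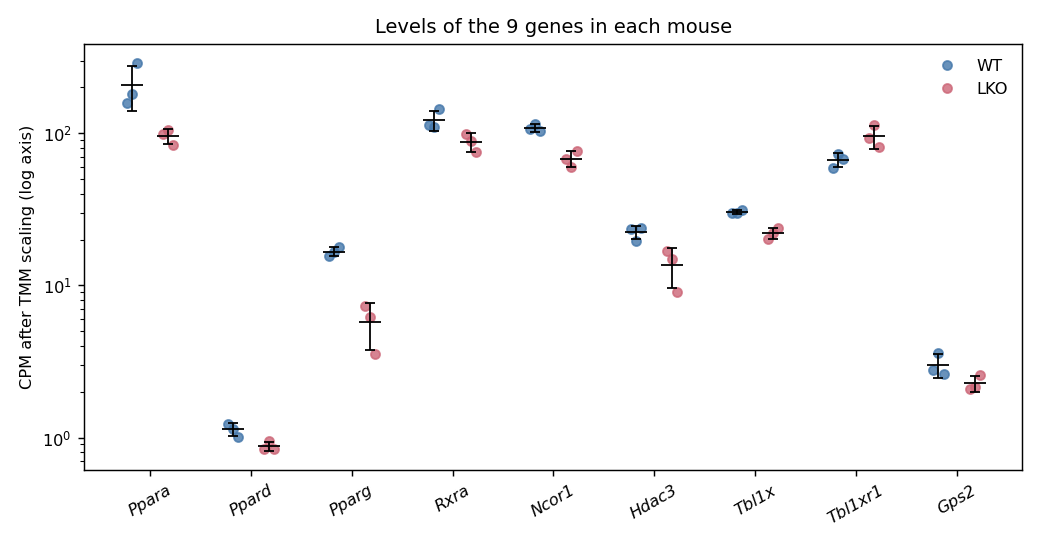
Levels of the 9 genes in each mouse, in CPM after TMM on a log axis, with WT mice in blue, LKO mice in red, and bars for the mean ± SD of 3 mice. *Ppara*, *Pparg*, *Ncor1*, *Hdac3* and *Tbl1x* are lower in each LKO mouse than in each WT mouse, and *Tbl1xr1* is higher on this scale and lower in read counts and TPM.

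*Ppara* (Entrez gene 19013, chr15:85734910-85806851) is the receptor through which fasting switches on fatty acid oxidation. Its read counts were 11739, 11818 and 19022 in WT livers and 4324, 3678 and 3863 in LKO livers. After TMM these were 157, 181 and 288 CPM in WT livers and 98.2, 105 and 83.5 CPM in LKO livers, with no overlap and with WT mouse 3 well above the other WT mice. *Ppara* fell by 1.12 ± 0.24 on the log2 scale (SE; edgeR, adjusted p = 0.0069), from 209 ± 69.4 to 95.7 ± 11.2 CPM (SD, n = 3 each). Without WT mouse 3 the log2 fold change was −0.83 (adjusted p = 0.016). The call held under all 21 alternatives.

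*Pparg* (Entrez gene 19016, chr6:115360879-115490404), the receptor of fat storage, had the lowest log2 fold change of the 9 genes. It was at 15.5, 16.6 and 17.8 CPM in WT livers and at 7.36, 6.22 and 3.55 CPM in LKO livers, from 1089 to 1177 and 164 to 324 read counts. The fall was 1.54 ± 0.26 on the log2 scale (SE; edgeR, adjusted p = 0.0023) and held under all 21 alternatives. A gene annotated as antisense to *Pparg*, *Gm44079*, overlaps it over 13176 bp. Since the use of strand in counting is not stated, reads of the pair could not be told apart.

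*Ppard* (Entrez gene 19015, chr17:28232754-28301469), the broadly expressed PPAR, was scarce. Its read counts were 92, 75 and 67 in WT livers and 37, 33 and 39 in LKO livers, or 1.23, 1.15 and 1.01 against 0.841, 0.946 and 0.843 CPM. Every LKO mouse was below every WT mouse, but the log2 fold change of −0.37 (95% interval −1.01 to 0.27; edgeR, adjusted p = 0.33) did not pass the test at this depth.

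*Rxra* (Entrez gene 20181, chr2:27676445-27763319), the heterodimer partner, was at 113, 109 and 143 CPM in WT livers and 99.0, 88.7 and 74.8 CPM in LKO livers. The genotypes did not overlap, and the log2 fold change of −0.48 (95% interval −0.87 to −0.08; edgeR, adjusted p = 0.057) did not pass the threshold after adjustment over all genes. The other RXR genes, *Rxrb* and *Rxrg*, had log2 fold changes of 0.32 (adjusted p = 0.51) and 0.22 (adjusted p = 0.67).

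*Ncor1* (Entrez gene 20185, chr11:62315663-62457414), the scaffold of the complex, was at 107, 115 and 103 CPM in WT livers and 68.0, 60.2 and 76.1 CPM in LKO livers, from 6822 to 7990 and 2098 to 3518 read counts. It fell by 0.67 ± 0.15 on the log2 scale (SE; edgeR, adjusted p = 0.0075), from 108 ± 6.04 to 68.1 ± 7.96 CPM. The call held with each mouse left out in turn and was lost only when the replicate number and gene length were both in the fit. *Ttc19* on the opposite strand shares 12026 bp with *Ncor1*, and its log2 fold change was −0.39 (adjusted p = 0.090).

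*Hdac3* (Entrez gene 15183, chr18:37936971-37955015) is the deacetylase that NCoR1 activates. It was at 23.5, 19.7 and 23.7 CPM in WT livers and at 16.7, 14.8 and 9.10 CPM in LKO livers, a fall of 0.72 ± 0.23 on the log2 scale (SE; edgeR, adjusted p = 0.035). LKO mouse 3 was the lowest of the group. The call was lost when WT mouse 1 (adjusted p = 0.099), WT mouse 3 (adjusted p = 0.10) or LKO mouse 2 (adjusted p = 0.068) was left out.

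The exchange factors *Tbl1x* (Entrez gene 21372, chrX:77509549-77662722) and *Tbl1xr1* (Entrez gene 81004, chr3:22076253-22216594) are close relatives and moved apart. *Tbl1x* was at 29.7, 29.9 and 31.4 CPM in WT livers and 20.0, 22.1 and 23.9 CPM in LKO livers, a fall of 0.46 ± 0.13 on the log2 scale (SE; edgeR, adjusted p = 0.025). *Tbl1xr1* was at 59.2, 73.0 and 67.6 CPM in WT livers and 92.6, 113 and 81.0 CPM in LKO livers. On this scale it rose by 0.52 ± 0.17 on the log2 scale (SE; edgeR, adjusted p = 0.039), whereas with total counts its log2 fold change was −0.36 (adjusted p = 0.091). Its read counts were 4411, 4777 and 4472 in WT livers and 4074, 3956 and 3744 in LKO livers, the smallest relative decrease in reads among the 9 genes. Both calls held without LKO mouse 3 and were lost when any other mouse was left out, which gave an adjusted p of 0.050 to 0.086 for *Tbl1x* and 0.063 to 0.13 for *Tbl1xr1*.

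*Gps2* (Entrez gene 56310, chr11:69913980-69917056) was at 2.76, 3.61 and 2.6 CPM in WT livers and at 2.09, 2.15 and 2.59 CPM in LKO livers. The genotypes were barely apart, and its log2 fold change was −0.39 (95% interval −0.94 to 0.16; edgeR, adjusted p = 0.23). In CPM the 3 WT mice and the 3 LKO mice did not overlap for any of the 9 genes, and 54.0% of all genes tested shared that property.

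**Figure D2:**
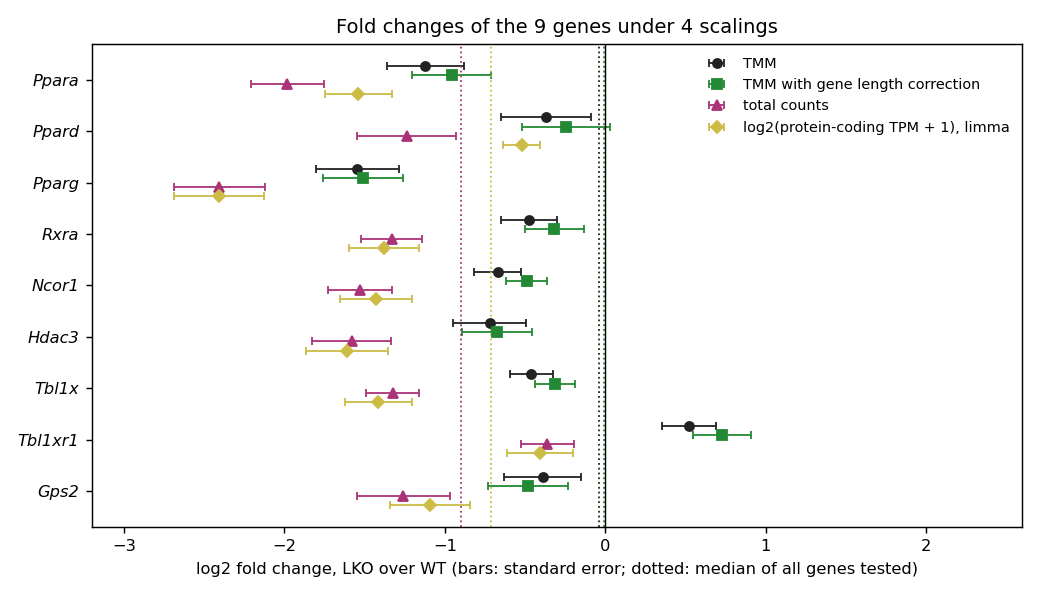
Log2 fold changes of LKO over WT (points, with standard errors as bars) for the 9 genes under TMM, TMM with gene length correction, total counts, and limma on protein-coding TPM, with dotted lines at the median of all genes for each. *Pparg* and *Ppara* lie left of the matching dotted line under each, and *Tbl1xr1* lies right of it under each but left of 0 with total counts and TPM.

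Levels of different genes were compared in TPM. In WT mice the order of mean TPM was *Ppara* (62.0 ± 13.4), *Rxra* (47.9 ± 4.53), *Ncor1* (26.6 ± 3.31), *Hdac3* (21.7 ± 1.18), *Pparg* (17.5 ± 1.27), *Tbl1xr1* (16.1 ± 2.34), *Tbl1x* (14.0 ± 1.54), *Gps2* (4.30 ± 1.19) and *Ppard* (0.689 ± 0.0966; SD, n = 3). The neighbours *Ppara* and *Rxra*, *Pparg* and *Tbl1xr1*, and *Tbl1xr1* and *Tbl1x* overlapped in range, and the other neighbours did not. In LKO mice the order was *Ppara* (13.7 ± 1.72), *Rxra* (12 ± 2.61), *Tbl1xr1* (7.88 ± 0.434), *Ncor1* (6.36 ± 1.54), *Hdac3* (4.51 ± 1.39), *Tbl1x* (3.20 ± 0.405), *Pparg* (1.90 ± 0.791), *Gps2* (1.09 ± 0.281) and *Ppard* (0.182 ± 0.0202). *Tbl1xr1* moved from place 6 to 3 and *Pparg* from 5 to 7. In LKO mice the ranges of *Ppara* and *Rxra*, of *Pparg* and *Gps2*, and of each neighbouring pair from *Tbl1xr1* to *Tbl1x* overlapped.

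*Ppara* made up 74.5%, 75% and 81.1% of the summed TPM of the PPAR genes in WT livers and 81.7%, 89.5% and 89.4% in LKO livers. *Pparg* made up 24.3%, 24.1% and 18.3% in WT and 17.1%, 9.58% and 9.14% in LKO livers, and *Ppard* between 0.612% and 1.45% in the 6 mice. The PPAR transcripts of both genotypes were thus mostly *Ppara*, with a smaller *Pparg* share of TPM in each LKO mouse than in each WT mouse. In read counts the *Pparg* share was 8.90%, 8.39% and 5.81% in WT and 6.92%, 5.52% and 4.03% in LKO livers, and LKO mouse 1 lay above WT mouse 3.

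A ratio of 2 transcripts within a mouse does not depend on how the library is scaled, but in TPM it does depend on the transcript lengths assigned to both genes. In all, 8 such ratios of TPM were compared by a two-sided exact permutation test, in which 3 against 3 mice cannot give a p below 0.1. *Tbl1xr1* over *Tbl1x* was 0.987, 1.22 and 1.25 in WT livers and 2.65, 2.70 and 2.11 in LKO livers, with no overlap (2.16-fold, exact permutation p = 0.1, adjusted over 8 ratios 0.4). From read counts it was 1.99 to 2.44 and 3.39 to 5.12, again with no overlap (1.97-fold). *Pparg* over *Ppara* was 0.327, 0.321 and 0.226 in WT livers and 0.210, 0.107 and 0.102 in LKO livers, with no overlap in TPM (0.460-fold, exact permutation p = 0.1, adjusted 0.4). From read counts it was 0.0985, 0.0921 and 0.0619 in WT and 0.0749, 0.0590 and 0.0425 in LKO livers, which overlapped (0.694-fold, exact permutation p = 0.2), so that the separation held in TPM alone. Neither ratio of TPM passed the threshold, which this design cannot reach.

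The other 5 ratios given here overlapped between the genotypes in TPM, and 2 of them did not overlap in read counts. *Ncor1* over *Ppara*, corepressor scaffold over receptor, was 0.535, 0.505 and 0.303 in WT livers and 0.507, 0.30 and 0.628 in LKO livers (exact permutation p = 0.9). *Rxra* over *Ppara* ranged from 0.692 to 0.879 in WT and from 0.623 to 1.12 in LKO livers (exact permutation p = 0.6), whereas from read counts it was 0.498 to 0.717 and 0.841 to 1.01, with no overlap (1.52-fold, exact permutation p = 0.1). Within the complex, *Hdac3* over *Ncor1* was 0.690 to 0.931 in WT livers and 0.449 to 0.905 in LKO livers, where LKO mouse 3 held the low value (exact permutation p = 0.7). *Gps2* over *Ncor1* was 0.139 to 0.190 and 0.156 to 0.180 (exact permutation p = 0.6), and *Ppard* over *Ppara* was 0.00755 to 0.0149 and 0.0103 to 0.0163 (exact permutation p = 0.6). From read counts *Ppard* over *Ppara* was 0.00352 to 0.00784 in WT and 0.00856 to 0.0101 in LKO livers, with no overlap (1.64-fold, exact permutation p = 0.1). With 3 mice a side these tests do not show that the ratios were alike. Read counts are not divided by length, so a ratio in read counts and in TPM differs by the lengths assigned to its genes. For *Ppara* this length in LKO livers was 72.6% of the WT mean, as given below, and ratios over *Ppara* in read counts hold that shift.

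**Figure D3:**
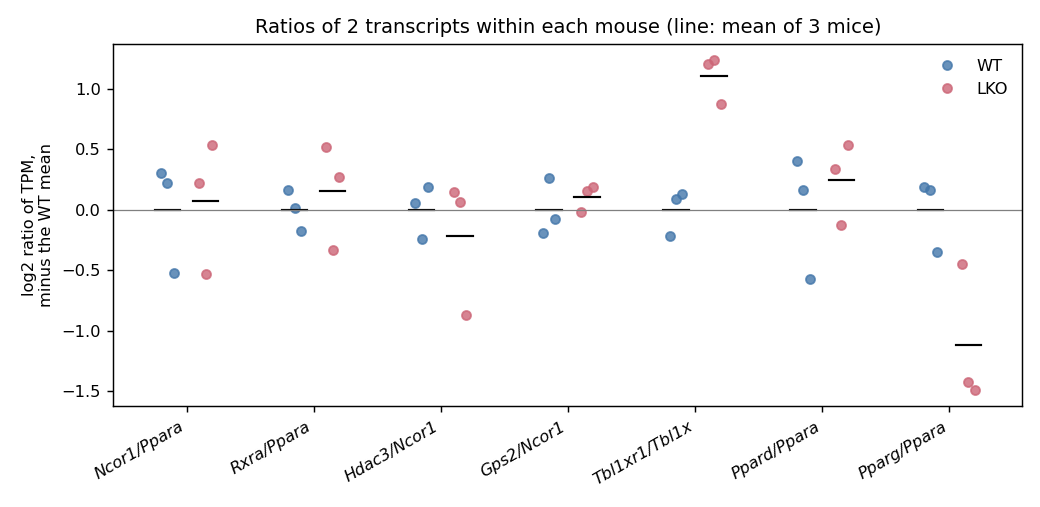
Ratios of the TPM of 2 genes within each mouse, as log2 minus the mean of the WT mice, with WT in blue, LKO in red and a line at the mean of 3 mice. *Tbl1xr1* over *Tbl1x* is higher by 1.11 and *Pparg* over *Ppara* lower, at −1.12, with no overlap between genotypes, while the other 5 ratios overlap. From read counts *Pparg* over *Ppara* overlaps, at −0.53.

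Read count divided by FPKM gives the mean length of the transcripts that the authors' quantification assigned to a gene, here put on a scale of nucleotides by genes with a single transcript. For *Ppara*, with 14 transcripts in the table, this length was 6135, 6444 and 6956 nt in WT livers and 5435, 3714 and 5217 nt in LKO livers, or 72.6% of the WT mean. Every LKO mouse was below every WT mouse, and LKO mouse 2 was the lowest. Among 7984 protein-coding genes with 2 or more transcripts and enough reads, 0.54% were shortened more strongly than *Ppara*. In that background 23.3% of genes did not overlap between genotypes and 11.9% were shorter in every LKO mouse.

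*Ncor1*, with 53 transcripts in the table, was also shorter, at 7811, 8128 and 8240 nt in WT livers and 7415, 7065 and 7564 nt in LKO livers, or 91.2% of the WT mean. *Pparg*, with 13 transcripts, was longer, at 1850, 1851 and 1907 nt in WT livers and 1941, 2046 and 2166 nt in LKO livers, or 109.6%. Each of these 3 had an exact permutation p of 0.1, the smallest that 3 against 3 mice allow. The other 6 genes overlapped between genotypes, with LKO means at 99.1% to 108.6% of the WT means. For *Ppara* the ratio of the LKO mean to the WT mean was 0.221 in TPM and 0.279 in read counts. TPM and read counts differ in scaling as well as in length. Because TPM divides reads by length, the shorter length in LKO livers by itself raises the ratio in TPM and does not lower it. The small RNAs 7SL and 7SK took up 44.4% to 53.9% of the TPM in LKO livers and 24.1% to 28% in WT livers. The sizes of the parts of scaling and of length were not tested.

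**Figure D4:**
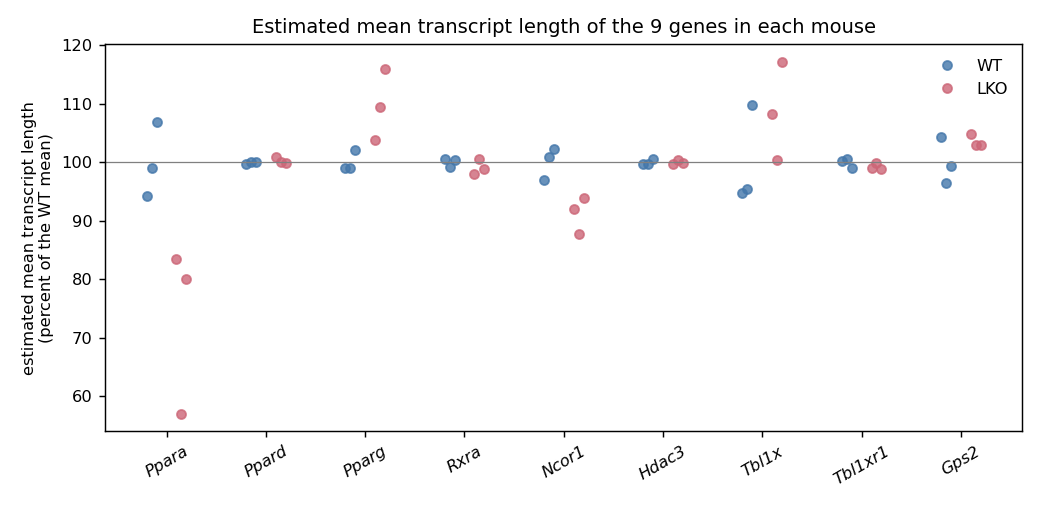
Estimated mean transcript length of the 9 genes in each mouse as a percent of the arithmetic WT mean, with WT in blue and LKO in red. *Ppara* and *Ncor1* are shorter and *Pparg* longer in each LKO mouse than in each WT mouse, while the other 6 genes overlap.

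Fold changes varied with transcript length over all genes. The median log2 fold change was 0.52 in the decile of genes with the shortest transcripts, up to 742 nt, and between −0.18 and −0.14 in each decile above 2183 nt. *Ppara* and *Ncor1* lie among the long genes. With a correction for gene length the log2 fold changes were −0.96 for *Ppara* (adjusted p = 0.016), −1.51 for *Pparg* (adjusted p = 0.0022), −0.49 for *Ncor1* (adjusted p = 0.018) and −0.67 for *Hdac3* (adjusted p = 0.039). *Tbl1xr1*, also a long gene, was at 0.73 (adjusted p = 0.013), and *Tbl1x* no longer passed, at −0.31 (adjusted p = 0.084).

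The sum of 7 hepatocyte markers was 43325 to 46607 CPM in WT livers and 107070 to 129850 CPM in LKO livers, with 3 of 7 called higher and 1 lower. Kupffer cell markers summed to 269.6 to 408 and 442 to 863 CPM (4 of 7 higher), endothelial markers to 352 to 413 and 632 to 691 CPM (5 of 7 higher) and stellate cell markers to 303 to 361 and 635 to 891 CPM (3 of 7 higher, 1 lower). Cholangiocyte markers summed to 32.9 to 50.3 and 13.7 to 30.3 CPM (1 of 4 tested lower), lymphocyte markers to 3.55 to 4.89 and 1.86 to 3.66 CPM (1 of 6 lower), and adipocyte markers to 6.42 to 12.2 and 16.9 to 29.5 CPM (1 of 2 tested higher, *Fabp4*, and 1 lower, *Cfd*), with *Plin1* and *Lep* at 0 in every mouse. Most of the adipocyte sum was *Fabp4*, at 9.27, 6.27 and 5.10 CPM in WT livers and 16.2, 24.9 and 29.4 CPM in LKO livers. The libraries were liver by their hepatocyte markers. All these sums are CPM after TMM, with factors of 1.28 to 1.43 for WT and 0.639 to 0.816 for LKO mice. They are relative to the other genes of the same libraries, were not computed with total counts, and do not give numbers of cells. The part of these shifts in the values of the 9 genes was not tested.

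The lists that follow hold genes around the 9. Their counts are to be read against all genes tested, of which 19.6% were called higher and 20.5% lower after TMM. With total counts these shares were 6.26% and 51.4%. Of 18 other corepressor and deacetylase genes, 4 were higher and 2 lower after TMM, with a median log2 fold change of −0.21. *Cir1*, a corepressor that joins transcription factors to the histone deacetylase complex, was at 7.0, 6.76 and 7.24 CPM in WT livers and 16.3, 13.9 and 15.8 CPM in LKO livers. Its log2 fold change was 1.13 (edgeR, adjusted p = 0.00085), against 0.28 with total counts (adjusted p = 0.27) and −0.35 with limma on log2(TPM + 1). The other genes called higher were the deacetylase *Hdac2* (0.76), *Sin3b* (0.62) and *Ctbp2* (0.79), whose signs turned with total counts, at −0.10, −0.25 and −0.10. The lower genes were the histone demethylase *Kdm4a* (−0.91) and the deacetylase *Hdac5* (−0.70). With total counts, 12 of the 18 were lower and 0 higher.

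Of 17 coactivators, 2 were higher and 2 lower after TMM, with a median of 0.01, and 0 were higher and 10 lower with total counts, with a median of −0.85. *Ppargc1a*, which encodes the fasting-induced coactivator PGC-1α, was at 8.62, 9.40 and 6.79 CPM in WT livers and at 18.9, 18 and 109.8 CPM in LKO livers. All LKO mice were above the WT mice, and LKO mouse 3 was far above the other two. The log2 fold change was 2.56 ± 0.67 (SE; edgeR, adjusted p = 0.017), against 1.15 (adjusted p = 0.0028) without LKO mouse 3, and the call was lost when WT mouse 1, 2 or 3 was left out (adjusted p = 0.052, 0.055 and 0.062). It was also lost with total counts, at 1.73 (adjusted p = 0.054), and the value was 0.46 with limma on log2(TPM + 1). The deacetylase *Sirt1*, which acts on PGC-1α, was at 0.74 after TMM and −0.12 with total counts, while *Ncoa3* and *Kmt2d* were lower, at −0.71 and −0.78. The acetyltransferases *Crebbp* and *Ep300* overlapped between genotypes, at 0.03 and 0.01.

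Of 20 other nuclear receptors tested, 2 were higher and 0 lower after TMM, with a median of 0.13, and 0 were higher and 9 lower with total counts, with a median of −0.71. *Nr1h4*, which encodes the bile acid receptor FXR, was at 89.4, 108 and 114 CPM in WT livers and 263, 284 and 148 CPM in LKO livers. Its log2 fold change was 1.16 (edgeR, adjusted p = 0.0077), against 0.28 with total counts (adjusted p = 0.35) and −0.44 with limma on log2(TPM + 1). *Nr1i3*, which encodes the xenobiotic receptor CAR, was at 29.4, 32.2 and 41.5 CPM in WT livers and 97.9, 80.8 and 39.5 CPM in LKO livers, where mouse 3 lay within the WT range. Its log2 fold change was 1.08 (edgeR, adjusted p = 0.024), against 0.23 with total counts (adjusted p = 0.56) and −0.52 with limma on log2(TPM + 1), and the call was lost without WT mouse 1 (adjusted p = 0.085), WT mouse 2 (0.085), LKO mouse 1 (0.073) or LKO mouse 2 (0.082). *Vdr* did not pass the filter.

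Of 11 kinases and ubiquitin enzymes reported to act on NCoR1, PAK4 included, 2 were higher and 3 lower after TMM, with a median of −0.18, and 0 were higher and 8 lower with total counts, with a median of −1.05. *Mtor*, the nutrient-sensing kinase, was at 58.9, 60.6 and 76.1 CPM in WT livers and 31.4, 29.2 and 20.3 CPM in LKO livers. It fell by 1.27 ± 0.20 on the log2 scale (SE; edgeR, adjusted p = 0.0017) and stayed below 0 under each scaling tried. Its partner *Rptor* (−0.52) and the ubiquitin ligase *Siah2* (−0.89) were also lower. The ubiquitin ligase *Siah1a* (0.97) and the ubiquitin-conjugating enzyme *Ube2d3* (0.84) were called higher after TMM and not with total counts, where they were at 0.10 (adjusted p = 0.75) and −0.04 (adjusted p = 0.84).

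Of 25 known PPARα target genes, 9 were higher and 4 lower after TMM, with a median of 0.36, and 2 were higher and 10 lower with total counts. *Cyp4a10* and *Cyp4a14*, fatty acid ω-hydroxylases and close copies whose reads may be shared, rose by the largest amounts of the list. *Cyp4a10* was at 183.8, 82.6 and 55.2 CPM in WT livers and 2277, 1872 and 2477 CPM in LKO livers, a log2 fold change of 4.36 (edgeR, adjusted p = 0.00040). *Cyp4a14* had 4.30 (adjusted p = 0.00076). Without WT mouse 1, which had the highest WT level of both, these were 5.01 and 5.06. *Pdk4*, which restrains glucose oxidation, was at 1.95 (adjusted p = 0.016), and at 1.89 (adjusted p = 0.059) without WT mouse 3 and 1.11 (adjusted p = 0.087) with total counts. The values of these 3 stayed above 0 under each scaling tried. The other targets called higher were *Acadl* (0.92), *Acadm* (0.72), *Hadhb* (0.68), *Angptl4* (0.98), *Vnn1* (0.59) and *Cyp8b1* (0.91). Of these, *Acadm* and *Hadhb* overlapped between genotypes. With total counts they were at 0.05, −0.14, −0.20, 0.12, −0.28 and 0.08 in the same order, and none was called.

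Of the same list, 4 genes fell. They included the peroxisomal thiolase *Acaa1b*, at −1.98 (edgeR, adjusted p = 0.0056), and the peroxisome proliferation factor *Pex11a*, at −1.33 (adjusted p = 0.0044), both without overlap between genotypes. The acyl-CoA synthetase *Acsl1* was at −1.10 (adjusted p = 0.034) with overlap, and its call was lost without WT mouse 1 (adjusted p = 0.13), WT mouse 3 (0.074), LKO mouse 2 (0.11) or LKO mouse 3 (0.087). The carnitine carrier *Slc25a20* was at −0.99. *Cpt1a*, which encodes the rate-limiting step of mitochondrial fatty acid import, was at 0.39 (edgeR, adjusted p = 0.13) and did not pass the test. The targets of PPARα included genes called in both directions in the livers in which *Ppara* was lower. This also holds for all genes tested, of which 19.6% were called higher and 20.5% lower.

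Of 8 PPARγ target genes tested, 2 were higher and 4 lower after TMM, with a median of −0.57, and 1 was higher and 5 lower with total counts. *Scd1*, a fatty acid desaturase, was at 6076, 3050 and 4847 CPM in WT livers and 361, 593 and 187 CPM in LKO livers, a fall of 3.61 ± 0.47 on the log2 scale (SE; edgeR, adjusted p = 0.00082). *Lpl*, lipoprotein lipase, fell by 1.66 (adjusted p = 0.0011), and the lipid droplet genes *Cidec* (−0.97) and *Plin4* (−0.87) were lower. The fatty acid binding protein *Fabp4* was at 1.77 (adjusted p = 0.0020) and above 0 under each scaling tried. The fatty acid transporter *Cd36* was at 1.17 (edgeR, adjusted p = 0.026), was at 0.26 with total counts (adjusted p = 0.50) and −0.33 with limma on log2(TPM + 1), and lost its call without WT mouse 2 (adjusted p = 0.091), WT mouse 3 (0.093) or LKO mouse 2 (0.096). *Fabp4* is also one of the adipocyte markers above. *Cidea* and *Adipoq* did not pass the filter.

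**Figure D5:**
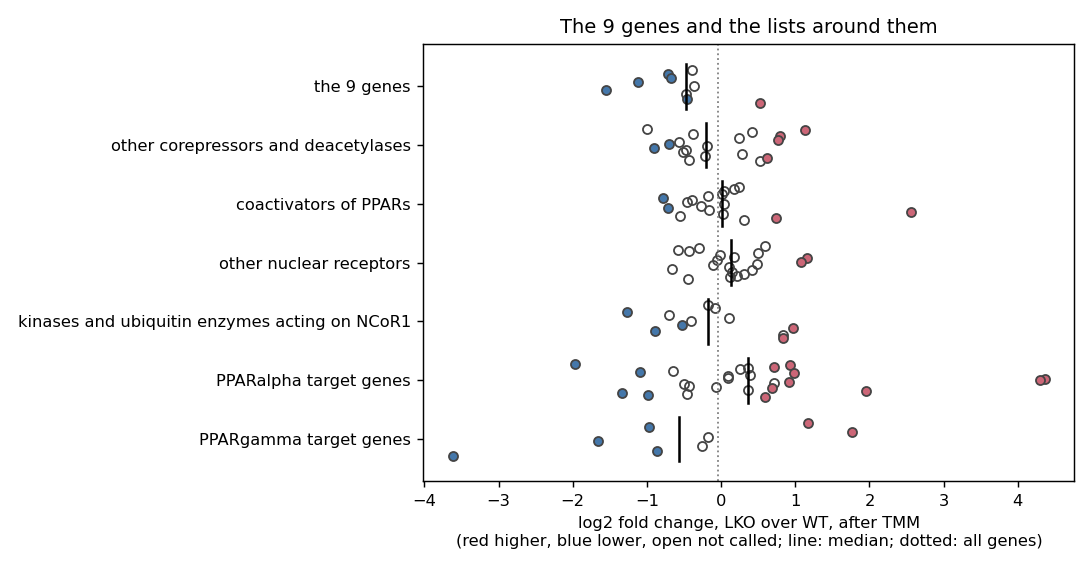
Log2 fold changes of LKO over WT after TMM for the 9 genes and the genes of each list, with red for called higher, blue for called lower and open circles for not called, a line at each list's median and a dotted line at the median of all genes (−0.04). The 9 genes have a median of −0.48, PPARα targets of 0.36 and PPARγ targets of −0.57, and with total counts these were −1.33, −0.50 and −1.44.

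Genes whose pattern over the 6 mice was most like that of *Ppara* and *Ncor1* were ranked by the root mean square difference of log2 CPM after each gene was centred on its mean, among 11667 protein-coding genes whose mean was 1 CPM or more. For *Ppara* these were *Gse1* (0.0972), *Slc26a2* (0.133), *Plk4* (0.136), *Cnot8* (0.146) and *Gabbr2* (0.160). For *Ncor1* they were *Tgoln1* (0.0432), *Edc4* (0.0449), the DNA methyltransferase *Dnmt3a* (0.0492), the mitochondrial calcium uniporter *Mcu* (0.0497) and *Pik3c3* (0.0507). The 6 values of each gene come from the same libraries, and the genes were picked for their likeness, which was not tested.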

How the data were processed

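Liver RNA of 3 WT and 3 LKO mice was sequenced, and the labelled genotypes set the groups. The authors deposited 1 table of 45777 genes, made with StringTie on mm10, that holds raw read counts, FPKM and TPM per mouse. The submitters' processing notes name HISAT2 2.1.0, Bowtie2 2.3.4.1 and StringTie 2.1.3b. The deposited read counts are estimates from coverage, the deposited FPKM are per kilobase of transcript, and the deposited TPM sum alike in each mouse. The use of strand is not stated, and labels and methods name different library kits.

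Counts were scaled by TMM and compared in edgeR 4.0.16 (R 4.3.3) by the two-sided quasi-likelihood test over 18636 genes with at most 1 zero count, with Benjamini-Hochberg adjustment and a threshold of 0.05. TPM gave ratios and the order of levels. Counts and FPKM gave transcript length, scaled on 2433 genes with a single transcript. Intervals are 95%. Single values were compared by exact permutation. The edgeR test was tried on simulated counts and limma on simulated normal values. The simulated libraries did not hold the shift in make-up between genotypes that is seen here.

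Alternatives were edgeR's exactTest, DESeq2 1.42.0 and its size factors, upper-quartile scaling, total counts, 3 other filters on low counts (one of at least 10 counts in every mouse), protein-coding genes alone, the replicate number as a block, gene length (lowess, span 0.3), both, limma 3.58.1 on log2(TPM + 1) and log2(TPM + 0.1), and each mouse left out. Limma on log2(protein-coding TPM + 1) was chosen after seeing the data.

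The members and lists were chosen with earlier results of these data known. Named genes were the 9 members, *Pak4*, genes overlapping them, the 5 genes most like *Ppara* and *Ncor1*, and list genes called with a log2 fold change of at least 1 in size. Other list genes were named after their values were seen. Values of some single genes and of 1 of the 8 ratios are not reported here, though the counts and adjusted p-values include them.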

Additional observations from a re-analysis of the deposited data

How the results depend on the processing

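The log2 fold changes of the 9 genes were recomputed under 21 alternatives, 189 values in all. Of these, 152 kept direction and side of the threshold, 21 were no longer past it, 12 were newly past it and 4 reversed. *Ppara* and *Pparg* were called in all 21, *Ncor1* in 20, *Hdac3* in 16, *Tbl1x* in 13, *Tbl1xr1* in 12, and *Ppard*, *Rxra* and *Gps2* in 4 each. The 4 reversals were all of *Tbl1xr1*, at −0.36 with total counts, −0.94 with limma on log2(TPM + 1), −1.01 with log2(TPM + 0.1) and −0.41 with protein-coding TPM. From the median of all genes these were 0.54, −0.15, 0.33 and 0.31.

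Of the 9 genes, 1 was called higher, against 0 with total counts, no filter, the replicate block and each of the 3 limma settings, and 0 to 1 with a mouse left out. Lower were 5, against 8 with total counts, 9, 9 and 8 with the limma settings, 2 with gene length and the replicate block together, and 3 to 5 with a mouse left out. Of the list genes, 21 were higher, against 3 with total counts, 2, 2 and 3 with limma, and 12 to 18 with a mouse left out. Lower were 15, against 54, then 81, 81 and 58, and 9 to 21. Over all genes, limma on log2(TPM + 1), log2(TPM + 0.1) and protein-coding TPM called 453, 467 and 639 higher and 13322, 13535 and 8624 lower, with medians of −0.79, −1.34 and −0.71.

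Deviations of same-numbered mice correlated at 0.04, −0.02 and −0.08, against −0.07 to 0.08 for mice of different numbers. The labels do not say that the numbers pair the mice, and so few mice cannot show whether they do. With the replicate block, 4 of the 9 genes were lower and 0 higher, and *Tbl1x* and *Tbl1xr1* had an adjusted p of 0.055 and 0.057.

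With a mouse left out, the log2 difference of the ratio ran from −0.18 (without WT mouse 3) to 0.38 for *Ncor1* over *Ppara*, which was −0.15 without LKO mouse 3. It ran from −0.027 (without LKO mouse 1) to 0.40 for *Rxra* over *Ppara*, from −0.40 to 0.11 (without LKO mouse 3) for *Hdac3* over *Ncor1* and from −0.036 (without WT mouse 3) to 0.45 for *Ppard* over *Ppara*. From read counts, the log2 differences were 0.40, 0.60, −0.084 and 0.72 for these 4, 0.29 for *Gps2* over *Ncor1*, 0.98 for *Tbl1xr1* over *Tbl1x* and −0.53 for *Pparg* over *Ppara*, against −1.12 in TPM. The ratios that reversed overlapped between genotypes in TPM, and the cause of the reversals was not tested.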
